A study of Mus musculus with 3 samples.

Results

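Retnlb, Spink4, Mptx1 and Reg4 are 4 secreted proteins of intestinal goblet and deep-crypt secretory cells. They were chosen by symbol, as 4 of the 32285 genes counted, from earlier results of the same libraries, so their own levels are given as a description with no test. The study sequenced single cells from the colon of germ-free mice in 3 groups: mice colonized with a mutant BT strain (BT mutant), mice colonized with the wild-type BT strain (BT WT), and germ-free mice given PBS. The labels used here do not spell out BT, do not name the mutation, and give no mouse strain, age, sex or number of pooled animals. Each group is 1 library, so no difference between groups was tested. Every interval below is an exact 95% interval for counting error, so no value carries an error between animals.

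Retnlb encodes resistin-like molecule beta, a small cysteine-rich protein that goblet cells secrete into the gut lumen. It is known to be low in germ-free mice, to rise on colonization and with type 2 cytokines, and to act on bacteria in the mucus. Spink4 belongs to the Kazal-type serine protease inhibitors and is a goblet cell product. Mptx1 is mucosal pentraxin, a short pentraxin of the gut epithelium. Reg4 is a C-type lectin of the regenerating family, and in the mouse colon it marks deep-crypt secretory cells that sit between the Lgr5 stem cells.

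The 4 genes lie on different chromosomes. On GRCm38 (GENCODE annotation), Retnlb spans chr16:48816856-48818892 with 4 exons, Spink4 spans chr4:40920052-40931395 with up to 4 exons, Mptx1 spans chr1:174330518-174332873 with 2 exons, and Reg4 spans chr3:98222156-98236748 with 6 exons, all on the plus strand. RefSeq promoter sequences (GRCm38.p6) matched 2 of the 4 genes. Mptx1 and Reg4 were high in overlapping cells, as described further on, so the 250 bases before each start are shown, on the plus strand from chr1:174330268-174330517 and chr3:98221906-98222155. Capitals mark the longest run of letters that both share.
Mptx1 promoter: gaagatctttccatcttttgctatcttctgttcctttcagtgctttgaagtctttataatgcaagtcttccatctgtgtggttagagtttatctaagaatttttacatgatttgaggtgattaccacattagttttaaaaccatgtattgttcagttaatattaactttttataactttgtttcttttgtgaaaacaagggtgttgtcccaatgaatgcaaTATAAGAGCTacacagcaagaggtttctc
Reg4 promoter: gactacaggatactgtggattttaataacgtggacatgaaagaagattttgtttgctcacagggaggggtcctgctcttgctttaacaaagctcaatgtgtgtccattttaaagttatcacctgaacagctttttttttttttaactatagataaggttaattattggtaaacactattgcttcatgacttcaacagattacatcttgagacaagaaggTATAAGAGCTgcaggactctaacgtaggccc
The shared run TATAAGAGCT begins 29 bases before the start of Mptx1 and 31 bases before that of Reg4, and it contains the TATA box core TATAA. Searched on both strands, the run was in 15 of 32851 promoter windows of the same length (0.0457%), while TATAA alone was in 22.8% of them. The run was picked as the longest match of these 2 windows, so a low share is built in. It is no evidence of a shared element. The FOXA core TGTTTNC was in both windows and in 17.8% of all, and the GATA core GATAA was in both and in 22.6% of all. The E-box CAGCTG (13% of all windows) and TTTATNG, the CDX core (9.81% of all windows) were in neither.

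The libraries held 8195 barcodes in BT mutant, 8829 in BT WT and 4425 in PBS. Barcodes with at least 300 genes and at most 25% mitochondrial UMIs (unique molecular identifiers, the unit counted) numbered 6138, 7070 and 3198 in that order, with medians of 3355, 3845 and 3671.5 UMIs. Pairs of libraries shared 6 to 13 barcodes. A cell was called Muc2-expressing with at least 5 UMIs of Muc2, the main secreted mucin of the colon, making up at least 20 per 10000 of its UMIs. That held for 157 cells in BT mutant (2.56%, interval 2.18 to 2.98), 971 in BT WT (13.7%, 12.9 to 14.6) and 192 in PBS (6.0%, 5.21 to 6.88). Their median depths were 4477, 5038 and 8766.5 UMIs. The goblet markers summed to 47316 UMIs per 1000000 (CPM) in the Muc2-expressing cells of BT mutant, 80851 in BT WT and 66166 in PBS. Colonocyte markers summed to 3577 CPM in BT mutant, 10214 in BT WT and 5130 in PBS. Enteroendocrine markers summed to 3679 CPM in BT mutant, 101 in BT WT and 56.7 in PBS, and stem markers to 1074, 338 and 823 CPM. The enteroendocrine sum came from few cells: at least 10 UMIs of these markers were found in 5, 3 and 3 Muc2-expressing cells. In BT mutant the 3888 UMIs of the hormone gene Pyy lay in 4 cells. The make-up of the Muc2-expressing cells therefore differed between the libraries in ways that bear on every value below.

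The 4 genes were concentrated in the Muc2-expressing cells of every library, and within them in few cells. Muc2-expressing cells held 84.6% of the Retnlb UMIs of all kept cells in BT mutant, 93.9% in BT WT and 85.6% in PBS. They held 88.8%, 77.3% and 63.8% of the Spink4 UMIs, 81.6%, 79.6% and 61.1% of the Mptx1 UMIs, and 86.9%, 81.1% and 49.0% of the Reg4 UMIs, in the same order. Of the UMIs of all kept cells, 50% came from 6, 6 and 8 cells for Retnlb, from 10, 12 and 10 for Spink4, from 4, 12 and 9 for Mptx1 and from 3, 7 and 6 for Reg4. For Muc2 itself the same share took 22 cells in BT mutant, 282 in BT WT and 52 in PBS. At most 12 cells thus held 50% of the UMIs of any of the 4 genes in any library, and single cells reached up to 404 UMIs of Retnlb, 1550 of Spink4, 6162 of Mptx1 and 204 of Reg4.

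**Figure D1:**
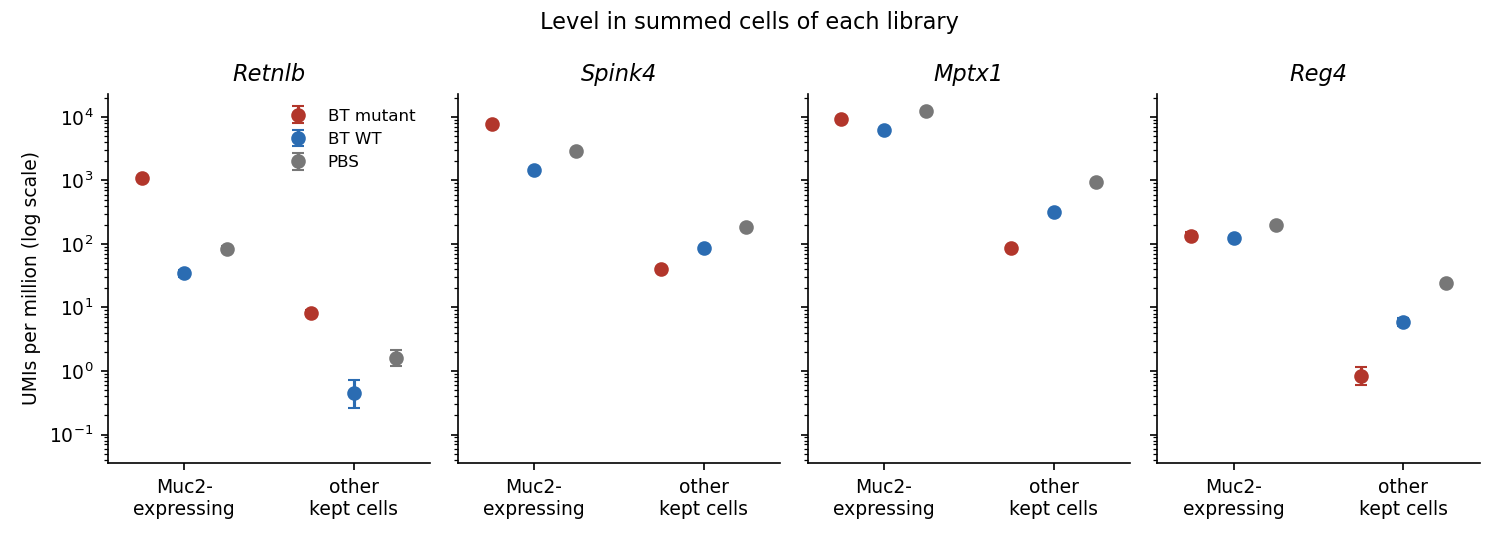
Level of each gene in UMIs per 1000000 (CPM, log scale) in summed Muc2-expressing cells and in the other kept cells, for BT mutant, BT WT and PBS. Points are summed cells of 1 library and bars are exact 95% Poisson intervals, many smaller than the point. Retnlb stands highest in BT mutant in both kinds of cells, at 1095 and 8.23 CPM, while Reg4 in the other kept cells runs from 0.843 CPM in BT mutant to 23.9 CPM in PBS.

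In the Muc2-expressing cells Retnlb had the widest ratios between the libraries of the 4 genes. In Muc2-expressing cells it had 1984 UMIs or 1095 CPM (1048 to 1145) in BT mutant, 262 UMIs or 34.4 CPM (30.4 to 38.9) in BT WT, and 267 UMIs or 83.1 CPM (73.5 to 93.7) in PBS. Across all kept cells it had 51.3 CPM in BT mutant, 6.19 CPM in BT WT and 10.1 CPM in PBS. BT mutant was highest on both counts even though its library had the smallest share of Muc2-expressing cells. A Retnlb UMI was found in 95 of 157 Muc2-expressing cells in BT mutant (60.5%), 78 of 971 in BT WT (8.03%) and 51 of 192 in PBS (26.6%). At least 10 UMIs were found in 21, 6 and 6 cells. In BT mutant those 21 cells held 90.6% of the Retnlb UMIs, against 55.3% in the 6 cells of BT WT and 52.4% in the 6 cells of PBS. The difference was not limited to the cells with many UMIs: in Muc2-expressing cells with fewer than 10 Retnlb UMIs, the level was 167 CPM in BT mutant, 15.9 CPM in BT WT and 42.6 CPM in PBS.

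Spink4 had 7854 CPM (7725 to 7984) in the Muc2-expressing cells of BT mutant, 1468 CPM (1441 to 1496) in BT WT and 2855 CPM (2797 to 2914) in PBS. The libraries lay closer over all kept cells, at 351, 321 and 465 CPM. At least 10 Spink4 UMIs were found in 40 Muc2-expressing cells of BT mutant (25.5%, 18.9 to 33), 46 of BT WT (4.74%, 3.49 to 6.27) and 44 of PBS (22.9%, 17.2 to 29.5). The number of such cells was thus similar in the 3 libraries, while the number of Muc2-expressing cells around them was not. The libraries had 6138, 7070 and 3198 kept cells, so as a share of kept cells they were most frequent in PBS. A further 9, 21 and 30 kept cells that did not meet the Muc2 rule had at least 10 Spink4 UMIs. The Muc2-expressing cells with at least 10 held 99.2%, 98.5% and 99.3% of the Spink4 UMIs of Muc2-expressing cells. Little Spink4 lay in the remaining cells, which had 208, 30.1 and 49.9 CPM.

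Mptx1 was likewise concentrated in few cells. Muc2-expressing cells had 9175 CPM (9036 to 9315) in BT mutant, 6156 CPM (6101 to 6212) in BT WT and 12562 CPM (12439 to 12685) in PBS. The values over all kept cells were 446, 1307 and 2137 CPM. The median Muc2-expressing cell had 4 Mptx1 UMIs in BT mutant, 1 in BT WT and 7 in PBS, where the medians of the other 3 genes were 0 or 1. At least 10 UMIs were found in 59 cells of BT mutant (37.6%), 96 of BT WT (9.89%) and 85 of PBS (44.3%), which held 98.5%, 96.9% and 99.4% of the Mptx1 UMIs of Muc2-expressing cells. In BT mutant the 10 cells with the most Mptx1 held 83.0% of its UMIs, against 56.8% in BT WT and 65.7% in PBS.

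Counted by at least 1 UMI, with no thinning, Reg4 was found in fewer Muc2-expressing cells than the other 3 genes. Muc2-expressing cells had 136 CPM (119 to 154) in BT mutant, 125 CPM (118 to 134) in BT WT and 198 CPM (183 to 214) in PBS. Over all kept cells it had 6.19 CPM in BT mutant, 26.1 CPM in BT WT and 42.0 CPM in PBS. A Reg4 UMI was found in 23 of 157, 49 of 971 and 30 of 192 Muc2-expressing cells, and at least 10 UMIs in 6, 19 and 16. At 10 UMIs Retnlb was the rarer gene in BT WT and PBS, with 6 and 6 cells. In the Muc2-expressing cells the intervals of BT mutant and BT WT overlapped, whereas over all kept cells they did not. These intervals leave out that the UMIs lay in few cells, so their overlap or separation decides nothing about the libraries. Without the cell with the most Reg4 in each library, Muc2-expressing cells had 94.3 CPM in BT mutant, 108 in BT WT and 178 in PBS.

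**Figure D2:**
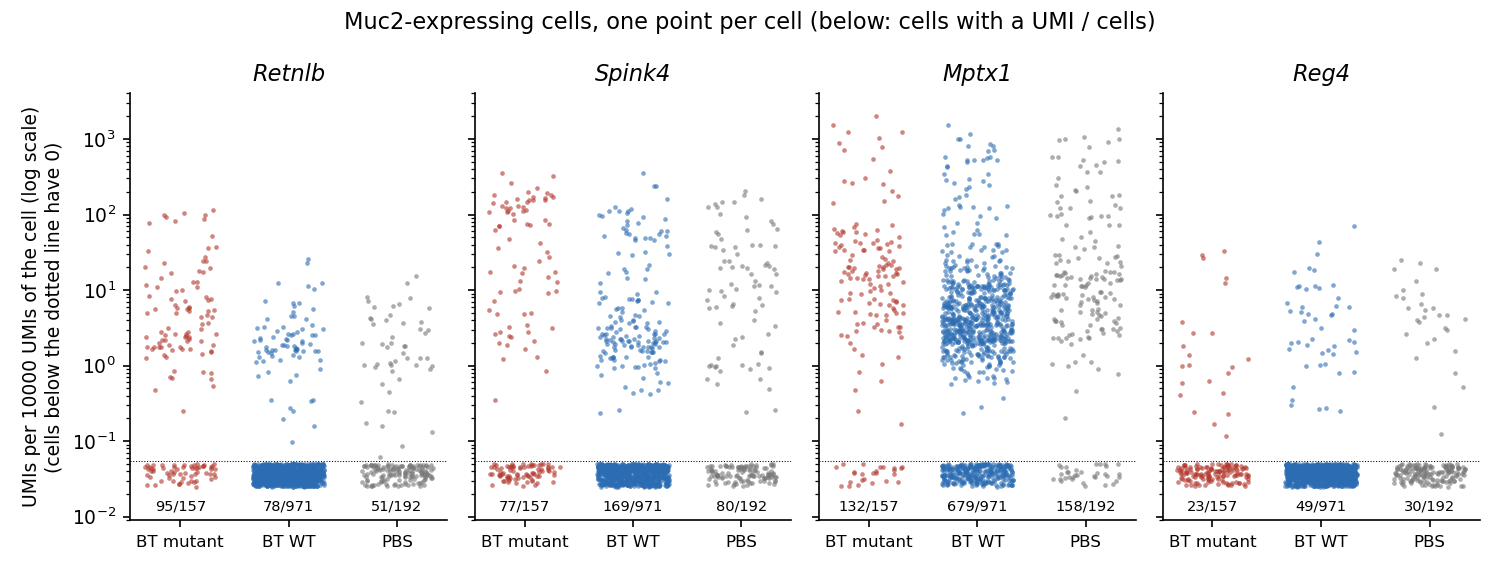
Each point is 1 Muc2-expressing cell of BT mutant, BT WT or PBS, placed by the gene's UMIs per 10000 UMIs of that cell (log scale). Cells below the dotted line have 0 UMIs, and the numbers give cells with a UMI over all cells. Retnlb points are denser and reach higher in BT mutant, where 95 of 157 cells have a UMI, and Spink4 has a UMI in 77 of 157 cells there, against 169 of 971 in BT WT and 80 of 192 in PBS.

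Depth differed between the libraries and free RNA is present in droplets, so each cell was also thinned to 2000 UMIs, which left out 24, 82 and 30 shallower Muc2-expressing cells in BT mutant, BT WT and PBS. Retnlb was then found in 32.3% (24.5 to 41.0) of Muc2-expressing cells in BT mutant, 3.49% (2.38 to 4.91) in BT WT and 8.02% (4.34 to 13.3) in PBS. In B-like cells, which should lack all 4 genes, the thinned shares of Retnlb were 1.55%, 0% (up to 0.290%) and 0.496%. Their median depths were 2739, 2823 and 3477.5 UMIs. B-like Retnlb levels ran in the same order as in the Muc2-expressing cells, at 9.33 CPM in BT mutant, 0.240 in BT WT and 2.07 in PBS. Spink4 was found in 43.6% (35.0 to 52.5), 10.5% (8.53 to 12.7) and 31.5% (24.4 to 39.2) of thinned Muc2-expressing cells, against 9.90%, 6.06% and 6.05% of B-like cells. Mptx1 was found in 69.2%, 45.7% and 74.1% of thinned Muc2-expressing cells. Its share in B-like cells was high, at 23.1%, 27.7% and 22.1%, so a single Mptx1 UMI is read as background. With at least 3 UMIs required, Mptx1 held for 45.9%, 12.9% and 42.6% of thinned Muc2-expressing cells and for 1.07%, 1.89% and 1.09% of B-like cells. Reg4 was found in 3.76% (1.23 to 8.56), 3.04% (2.01 to 4.39) and 13% (8.21 to 19.1) of thinned Muc2-expressing cells, against 0.0971%, 0.709% and 0.298% of B-like cells.

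**Figure D3:**
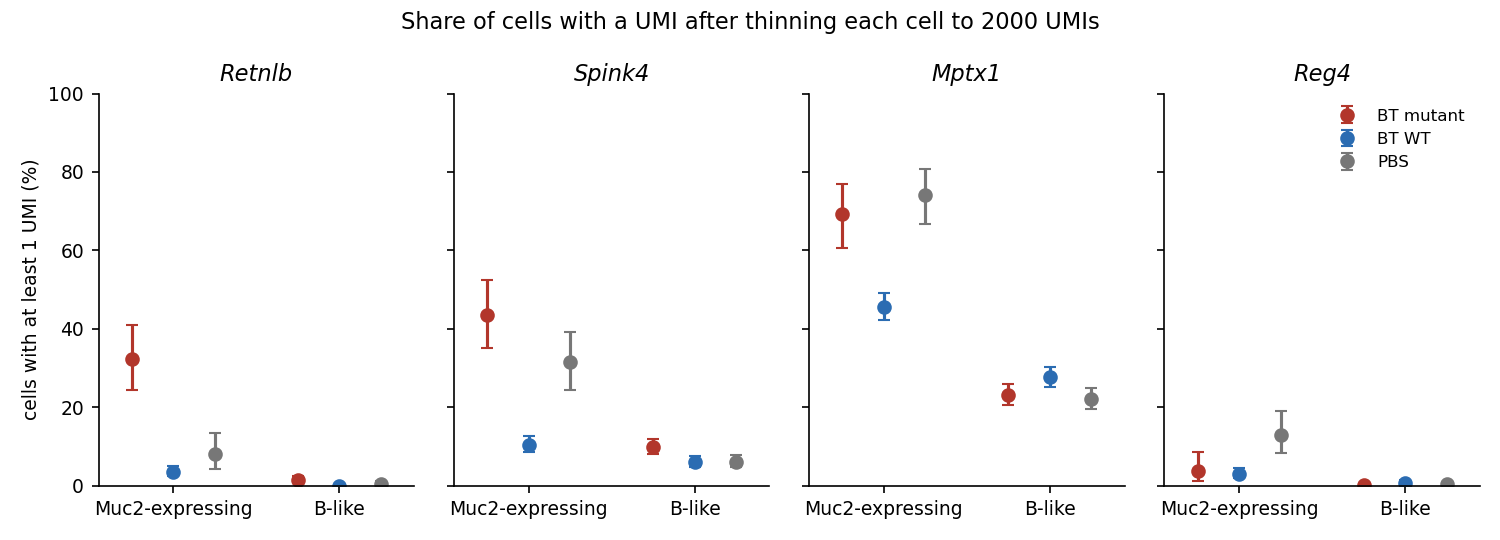
Share of cells (%) with at least 1 UMI of each gene after each cell was thinned to 2000 UMIs, in Muc2-expressing and in B-like cells of BT mutant, BT WT and PBS. Bars are exact (Clopper-Pearson) 95% intervals for counting error. For Mptx1, 22.1% to 27.7% of B-like cells have a UMI, which sets the background that the 45.7% to 74.1% of Muc2-expressing cells are read against.

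The genes were nested within cells. Every Muc2-expressing cell with at least 10 Reg4 UMIs also had at least 10 of Spink4 and at least 10 of Mptx1, in 6 of 6 cells of BT mutant, 19 of 19 of BT WT and 16 of 16 of PBS. Across all Muc2-expressing cells, at least 10 Spink4 UMIs were present in 25.5%, 4.74% and 22.9%. The pattern was also there at equal depth: after thinning to 2000 UMIs, Spink4 was found in 5 of 5, 21 of 27 and 20 of 21 cells with a Reg4 UMI. Among cells without one, it was found in 41.4%, 8.35% and 22.0%.

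At 10 or more UMIs, with no thinning, most cells high in Spink4 were also high in Mptx1 in BT WT and PBS. Most cells high in Mptx1 were not high in Spink4 in any library. Of Muc2-expressing cells with at least 10 Spink4 UMIs, 20 of 40 in BT mutant (interval 33.8% to 66.2%) also had at least 10 of Mptx1, against 39 of 46 in BT WT (84.8%, 71.1 to 93.7) and 38 of 44 in PBS (86.4%, 72.6 to 94.8). Seen from Mptx1, the shares with Spink4 were 20 of 59 (33.9%), 39 of 96 (40.6%) and 38 of 85 (44.7%). Cells with many UMIs of Mptx1 and of none of the other 3 numbered 36, 55 and 47, and those of Spink4 alone 16, 7 and 6. The Spink4-alone cells made up 10.2% of the Muc2-expressing cells of BT mutant, 0.721% in BT WT and 3.12% in PBS.

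Cells with many Retnlb UMIs mostly had many of Spink4 and Mptx1 too. Of cells with at least 10 Retnlb UMIs, 17 of 21 in BT mutant, 4 of 6 in BT WT and 6 of 6 in PBS had at least 10 of Spink4, and 16 of 21, 6 of 6 and 6 of 6 had at least 10 of Mptx1. Seen from Spink4, 17 of 40 high cells in BT mutant (42.5%, 27.0 to 59.1) were also high in Retnlb, against 4 of 46 in BT WT (8.70%, 2.42 to 20.8) and 6 of 44 in PBS (13.6%, 5.17 to 27.4). At equal depth the intervals of the shares with Spink4, in cells with and without Retnlb, were apart in BT mutant and overlapped in BT WT and PBS: after thinning to 2000 UMIs, Spink4 was found in 27 of 43 cells with a Retnlb UMI in BT mutant (62.8%), 5 of 31 in BT WT (16.1%) and 4 of 13 in PBS (30.8%). Among thinned cells without one it was found in 34.4%, 10.3% and 31.5%. All 4 genes reached 10 UMIs together in 3, 3 and 2 cells, and none did in 77, 868 and 101 cells.

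**Figure D4:**
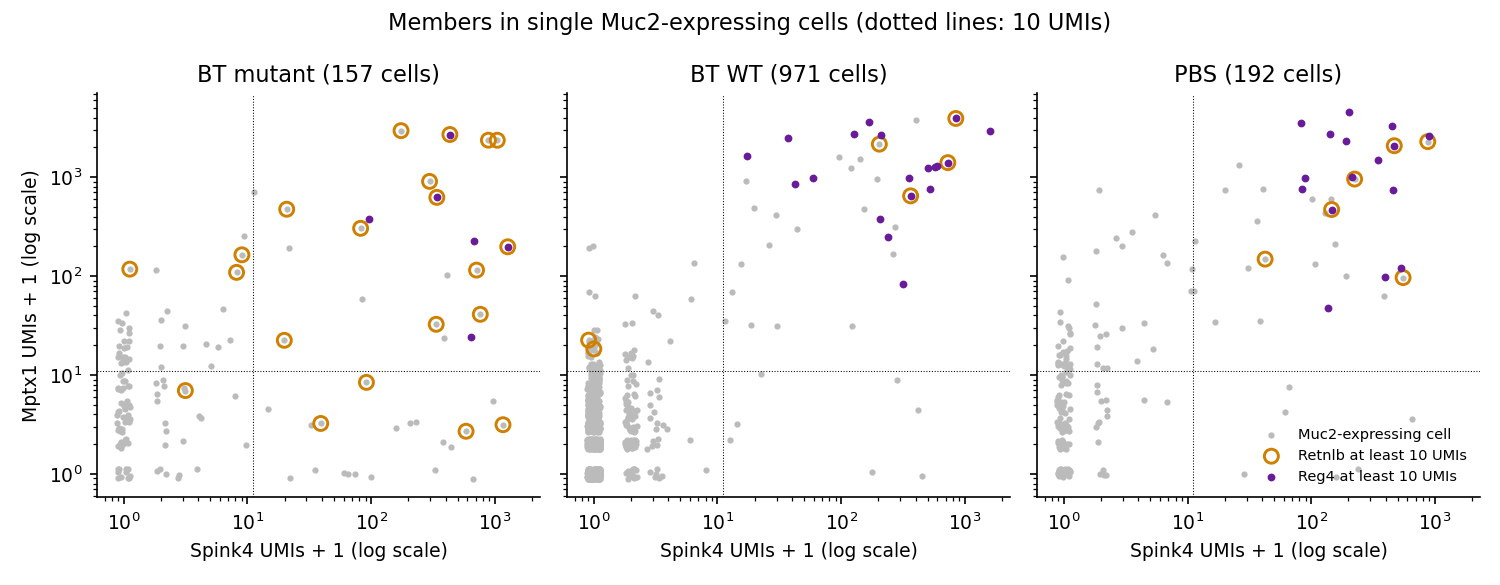
Spink4 UMIs plus 1 (x axis, log scale) against Mptx1 UMIs plus 1 (y axis, log scale) in single Muc2-expressing cells of BT mutant, BT WT and PBS, slightly jittered. Dotted lines stand at 10 UMIs, purple points are cells with at least 10 Reg4 UMIs and open rings are cells with at least 10 Retnlb UMIs. All purple points (6, 19 and 16) lie in the upper right, and rings are most frequent in BT mutant (21, 6 and 6).

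Cells with many Spink4 UMIs had more Agr2 and less Zg16 and Clca1 than the other Muc2-expressing cells, genes that were picked after their values were seen. Agr2, a protein disulfide isomerase of mucin-producing cells, had 9669 CPM in Muc2-expressing cells with at least 10 Spink4 UMIs and 614 CPM in the rest in BT mutant, 5782 and 321 CPM in BT WT, and 4877 and 921 CPM in PBS. Zg16, a lectin-like mucus protein, had 24.6 and 19813 CPM in BT mutant, 2399 and 29097 CPM in BT WT, and 6467 and 53989 CPM in PBS. Clca1, a mucus-processing metalloprotease, had 732 and 19482 CPM, 425 and 18882 CPM, and 776 and 13836 CPM in the 3 libraries. The cycling marker Mki67 had 95.8, 56.1 and 104 CPM in the cells with Spink4, and 0, 1.92 and 5.13 CPM in the rest. The cells with Spink4 were also far deeper, with medians of 23079.5, 34499 and 32426 UMIs against 3874, 4929 and 7332.5 UMIs. Cells with at least 50000 UMIs numbered 9, 14 and 13 among the Muc2-expressing cells and held 38.0%, 44.3% and 31.5% of their Spink4 UMIs, and 37.4%, 44.9% and 23.1% of their Reg4 UMIs. Whether such deep barcodes hold more than 1 cell was not tested.

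Cells were also clustered without the 4 genes, and clusters were named from fixed markers. The largest goblet-like cluster, led by Zg16, Clca1, Tff3, Fcgbp and Muc2, held 67, 513 and 110 of the Muc2-expressing cells in BT mutant, BT WT and PBS. A second goblet-like cluster, led by Agr2, Sval1, Ccl6 and Muc2, had only 5, 25 and 30 cells, yet it held 15.2%, 36.0% and 40.9% of each library's Mptx1 UMIs and 27.9%, 40.6% and 36.3% of its Reg4 UMIs. Another, led by Agr2, Clca3b and Gpx2, had 1, 20 and 8 cells and held 10.6%, 36.9% and 14.6% of the Mptx1 UMIs. A cluster led by Pyy, Agr2, Gcg, Muc2 and Insl5 was left unnamed, since enteroendocrine hormones stand among its leading genes. It had 26 cells in BT mutant, 7 in BT WT and 5 in PBS, and in BT mutant it held 51.3% of the Spink4, 30.8% of the Retnlb, 24.6% of the Mptx1 and 44.5% of the Reg4 UMIs. Only 3 of its 26 BT mutant cells had at least 10 UMIs of Pyy, Gcg and Insl5 together, so the hormones came from a few barcodes. The median cell of that cluster in BT mutant had 253 UMIs of Spink4, 7 of Retnlb and 230.5 of Muc2. A small stem or transit-amplifying-like cluster with Agr2 and Mki67 among its leading genes (6, 7 and 4 cells) held 21.3%, 12.7% and 11% of the Spink4 UMIs.

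**Figure D5:**
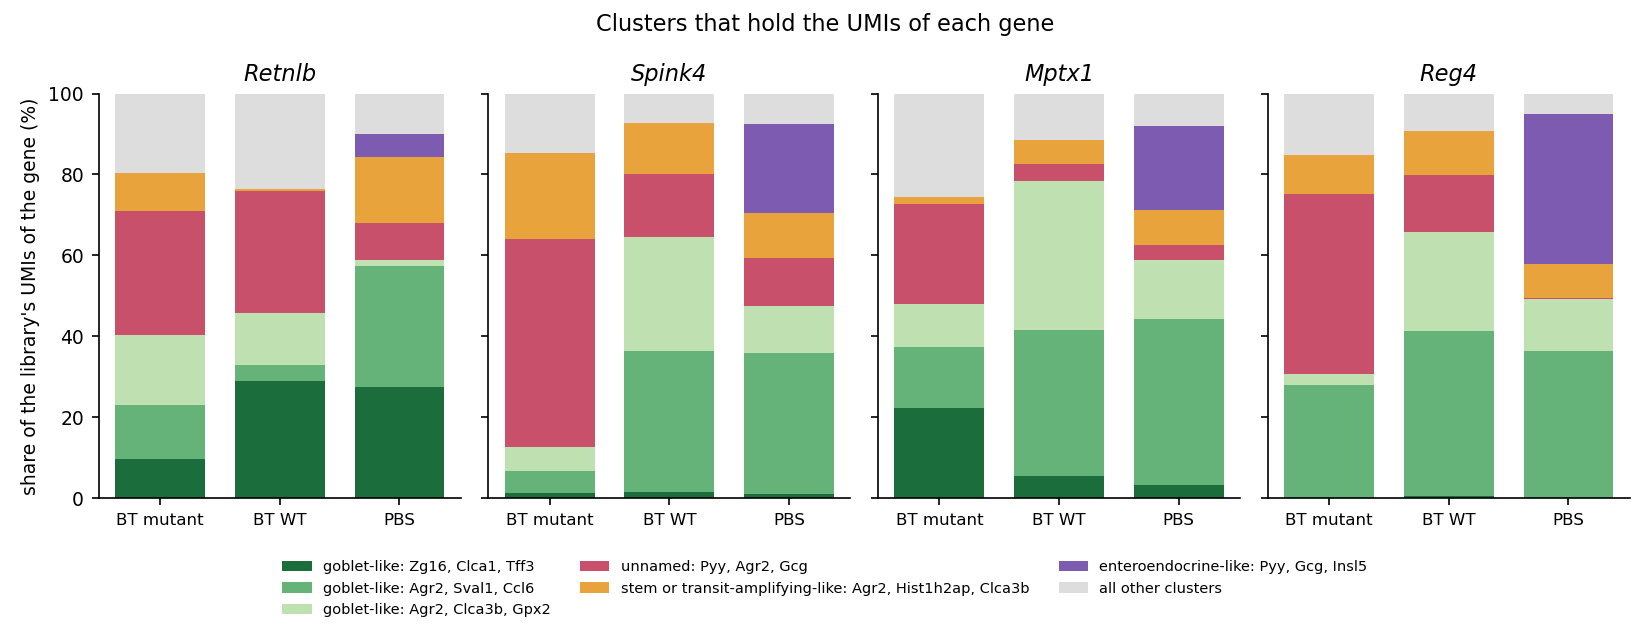
Share (%) of each library's UMIs of a gene that lies in each of 6 clusters, labelled by name and 3 leading genes, or in all others (grey), for BT mutant, BT WT and PBS. The unnamed cluster led by Pyy, Agr2 and Gcg holds 51.3% of Spink4 in BT mutant, and the enteroendocrine-like cluster found only in PBS holds 37% of its Reg4.

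The largest goblet-like cluster allows the libraries to be set beside each other within 1 cluster. Its Muc2-expressing cells still differed, with median depths of 3872 UMIs in BT mutant, 4404 in BT WT and 8473 in PBS. Muc2 stood at 32943, 25587 and 14306 CPM in them. The counts of cells below are not at equal depth. Its Muc2-expressing cells had 804 CPM of Retnlb in BT mutant, 34.1 CPM in BT WT and 88.0 CPM in PBS. A Retnlb UMI was found in 35 of 67, 46 of 513 and 29 of 110 of these cells. Of the 219 Retnlb UMIs in BT mutant, 124 came from 1 cell. Without the cell with the most Retnlb in each library, the levels were 369 CPM (298 to 451) in BT mutant, 28.6 CPM in BT WT and 77.2 CPM in PBS, and BT mutant was 12.9-fold above BT WT instead of 23.6-fold and 4.78-fold above PBS instead of 9.13-fold. The same BT mutant cell held 2980 of the 4479 Mptx1 UMIs and 162 of the 189 Spink4 UMIs of the cluster. Without the top cell of each library, Mptx1 was at 5819 CPM in BT mutant, 744 CPM in BT WT and 1997 CPM in PBS, against 16437, 1400 and 2211 CPM with it. Spink4 was then at 105, 50.2 and 99 CPM, against 694, 90.9 and 139 CPM. At least 10 Mptx1 UMIs were found in 23 of 67 (34.3%), 38 of 513 (7.41%) and 42 of 110 (38.2%) of these cells. Reg4 was all but missing, with 0, 8 and 0 UMIs, where a count of 0 allows up to 3 UMIs.

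In PBS, much of the Spink4, Mptx1 and Reg4 lay outside the Muc2-expressing cells. An enteroendocrine-like cluster of 18 barcodes, led by the hormone genes Pyy, Gcg and Insl5 and found in no other library, held 21.9% of the Spink4, 20.9% of the Mptx1 and 37% of the Reg4 UMIs of PBS, and 5.77% of its Retnlb. Only 2 of the 18 met the Muc2 rule. All 18 had at least 25 UMIs of Mptx1 and 5 of Spink4, and 16 of them had at least 10 UMIs over the 3 hormones. The composition of these barcodes was much alike although their depth ran from 2085 to 292277 UMIs: Mptx1 made up 120 to 441 and the 3 hormones 19.2 to 63.6 of 10000 UMIs. In the Agr2-Sval1 goblet-like cluster of PBS, by comparison, Mptx1 ran from 0 to 1359 per 10000. Whether the 18 barcodes are separate cells was not tested. The deepest of them held 44.7% of the cluster's Mptx1. Without the cluster, PBS over all kept cells had 371 CPM of Spink4, 1724 of Mptx1 and 27.0 of Reg4, against 465, 2137 and 42.0 CPM with it.

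The comparisons between libraries were read as ratios of summed Muc2-expressing cells, with a gene called different at 2-fold or more and at least 50 UMIs over both sums. Between BT mutant and BT WT, 2 of the 4 genes were at least 2-fold higher in BT mutant, where 11.7% of 9372 genes were. Retnlb was 31.8-fold higher (28.0 to 36.3) and Spink4 5.35-fold higher (5.22 to 5.48). Mptx1 was 1.49-fold higher (1.46 to 1.52), and Reg4 was at 1.08 times the BT WT level (0.938 to 1.25). Retnlb kept its direction under each of 14 alternative settings, with ratios of 14 to 44.6. Spink4 ranged from 1.91 to 23.0, with the lowest value over the goblet-like clusters, which leave out the Pyy-Agr2 cluster. The highest came without cells with at least 2 UMIs of B, T, plasma or macrophage markers. That setting kept 671 Spink4 UMIs in BT mutant and 152 in BT WT. Mptx1 was above BT WT in 12 of 14 alternatives and Reg4 in 7 of 13, so their direction depends on which cells are summed. Over all kept cells, 1 of the 4 genes was at least 2-fold higher in BT mutant (3.03% of all genes were), with Retnlb 8.28-fold higher. There 2 were at least 2-fold lower (3.35% of all genes were), with Mptx1 2.93-fold and Reg4 4.22-fold lower.

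Against PBS, BT mutant was at least 2-fold higher in 2 of the 4 genes, where 2.26% of 8008 genes were. Retnlb was 13.2-fold higher (11.6 to 15) and Spink4 2.75-fold higher (2.68 to 2.82). Mptx1 was 1.37-fold lower (1.34 to 1.39) and Reg4 1.46-fold lower (1.26 to 1.70). Mptx1 was lower in only 11 of 14 alternatives, with ratios of 0.343 to 7.43, and Reg4 in 12 of 13, with ratios of 0.257 to 1.81. The Reg4 ratio of 1.81 rests on 7 UMIs in BT mutant and 2 in PBS, under the same setting without immune marker cells. Retnlb ranged from 8.46 to 15.1 over the alternatives. Spink4 was 1.07-fold lower than in PBS over the goblet-like clusters, so its direction depends on which cells are summed. Over all kept cells, 1 of the 4 was at least 2-fold higher in BT mutant than in PBS (2.98% of all genes were), with Retnlb 5.08-fold higher, and 2 were lower (4.82% of all genes were), with Mptx1 4.79-fold and Reg4 6.79-fold lower. Without the 18 barcodes of the enteroendocrine-like cluster, PBS had 1724 CPM of Mptx1 and 27.0 of Reg4, against 446 and 6.19 CPM in BT mutant. In sums over all kept cells, fewer cells of a type and less RNA per cell cannot be told apart.

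Between BT WT and PBS, all 4 genes were lower in BT WT, and 2 of them at least 2-fold, where 5.82% of 9717 genes were. Retnlb was 2.41-fold lower (2.03 to 2.87), Mptx1 2.04-fold (2.01 to 2.07), Spink4 1.94-fold (1.89 to 2.0) and Reg4 1.58-fold (1.43 to 1.75). The direction was the same under each alternative that gave a ratio, but the count past 2-fold ran from 0 to 4. Mptx1 was 1.17-fold to 4.58-fold lower over the alternatives, Spink4 1.36-fold to 4.10-fold and Reg4 1.17-fold to 3.11-fold. Over all kept cells 0 of the 4 were at least 2-fold higher and 0 lower (4.51% and 4.74% of all genes were), the folds being 1.45 to 1.63 lower in BT WT. Without the enteroendocrine-like cluster, PBS had 371 CPM of Spink4, 1724 of Mptx1 and 27.0 of Reg4, against 321, 1307 and 26.1 CPM in BT WT. Muc2 itself was 1.8-fold higher in BT WT than in PBS in the Muc2-expressing cells. These comparisons share libraries, so they are not independent of each other.

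The genes most like each member were found by the Pearson correlation of log(1 + UMIs per 10000) over Muc2-expressing cells, averaged over the 3 libraries (157, 971 and 192 cells), among 5464 genes. The cells of a library share its depth and composition, so the values are descriptive. For Spink4 they were Agr2 (mean 0.71), Selenom (0.70), Oit1 (0.66), Nme2 (0.65) and Gmds (0.63), an enzyme of GDP-fucose synthesis. The lowest were Zg16 (-0.68) and Clca1 (-0.66). For Reg4 they were B3gnt7 (0.50), a glycosyltransferase, Selenom (0.45), Oit1 (0.44), Ramp1 (0.42) and Nme2 (0.41), and the lowest were Tff3 (-0.44) and Zg16 (-0.44). For Mptx1 they were Klk1 (0.47), a kallikrein protease, Ramp1 (0.44), B3gnt7 (0.44), Agr2 (0.41) and Oit1 (0.35), with Saa1 (-0.35) and Cyp2d34 (-0.33) lowest. For Retnlb they were Klk1 (0.37), Agr2 (0.28), Ramp1 (0.27), Tmed3 (0.27) and Fxyd3 (0.25), with Ahnak (-0.23) and Malat1 (-0.22) lowest. Agr2, Ramp1 and Oit1 thus appeared in 3 of the 4 lists each.

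Correlations among the members differed between the libraries. Spink4 and Mptx1 had r = 0.07 in BT mutant, 0.52 in BT WT and 0.57 in PBS. Retnlb and Mptx1 had r = 0.59 in BT mutant, 0.18 in BT WT and 0.27 in PBS. Spink4 and Reg4 had r = 0.42, 0.58 and 0.64, and Mptx1 and Reg4 had r = 0.33, 0.44 and 0.62. Spink4 ran against Muc2 in each library, at -0.19, -0.18 and -0.35.

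A goblet gene list was drawn up as secreted products, but it also holds genes that are not secreted, such as the membrane mucins Muc1 and Muc13. Lypd8 is also among the colonocyte markers used here, and Tgm3 among the leading genes of a colonocyte-like cluster. Of the list's 21 measured genes, 3 were at least 2-fold higher and 11 lower in BT mutant than in BT WT. Of all genes tested 11.7% were higher and 9.97% lower. The median log2 ratio was -1.10 against -0.01 over all genes tested. The 3 most abundant were Zg16 (6021 and 22467 CPM), Tff3, a trefoil peptide of mucus (6421 and 16766 CPM), and Muc2 (14953 and 14274 CPM). The ratios farthest from 1 were those of Muc1 (16.0 and 91.3 CPM) and Tgm3, a transglutaminase (42.0 and 219 CPM). Against PBS, 3 were higher (Agr2, Ccl9 and Ang4) and 3 lower (Tff3, Zg16 and Ccl6) in BT mutant, where 2.26% of all genes were higher and 3.51% lower, with a median of -0.25 against -0.02. Zg16 was farthest from 1, at 6021 CPM in BT mutant and 26646 CPM in PBS, followed by Ccl9, a chemokine, which was 2.75-fold higher in BT mutant. Between BT WT and PBS, 3 were higher (Clca1, Muc1 and Tgm3) and 0 lower, where 5.66% of all genes were higher and 5.82% lower, with a median of 0.39 against -0.04. Muc1 was 5.53-fold and Tgm3 5.20-fold higher in BT WT than in PBS. The high Retnlb and Spink4 of BT mutant thus stood beside lower Tff3 and Zg16, and beside the lower summed colonocyte markers given above. The summed stem markers were higher there, and so were the enteroendocrine markers, the latter from few cells. The part of those markers in the ratios was not tested. Without cells with at least 10 enteroendocrine marker UMIs, Retnlb was 35.9-fold and Spink4 5.20-fold above BT WT. That setting left out 5 cells of BT mutant and 3 of BT WT, and did not select cells by stem or colonocyte markers.

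Of 15 measured deep-crypt and Paneth-type secretory genes, 7 were higher and 2 lower in BT mutant than in BT WT, with a median of 0.60. Of all genes tested 11.7% were higher and 9.97% lower, so the 2 lower stand near that share. Cd44, a cell-surface glycoprotein of the crypt base, was at 30.9 and 6.44 CPM, and Agr2 at 6925 and 1677 CPM. Nupr1 had 379 and 451 CPM. Spink1, a protease inhibitor related to Spink4, had 1323 CPM in BT mutant, 3803 CPM in BT WT and 4758 CPM in PBS. The stem cell receptor Lgr5 had 15.5, 4.34 and 6.85 CPM, and Kit, a receptor of deep-crypt secretory cells, had 92.8, 57.8 and 124 CPM. Against PBS, 5 were higher and 3 lower in BT mutant (median -0.39, with 2.26% and 3.51% of all genes), with Cd44 farthest from 1 beside Areg, an EGF-family ligand at 54.7 and 218 CPM. Between BT WT and PBS, 0 were higher and 4 lower (Kit, Dll1, Areg and Sox9; median -0.32, with 5.66% and 5.82% of all genes), with Areg and Dll1 farthest from 1.

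Of 19 measured secretory fate factors, 1 was higher (Sox9, 130 and 61.4 CPM) and 4 lower (Klf4, Gfi1, Hes1 and Hnf4a) in BT mutant than in BT WT, with a median of -0.27, where 11.7% of all genes were higher and 9.97% lower. The most abundant were Klf4 (397 and 981 CPM), Hes1, a Notch target (174 and 515 CPM), and Elf3 (255 and 406 CPM). Against PBS, 0 of 18 were higher and 1 lower in BT mutant (Klf4, a factor of goblet cell differentiation, 397 and 879 CPM), where 2.26% and 3.51% of all genes were, and between BT WT and PBS 0 of 19 were higher and 1 lower (Sox9), where 5.66% and 5.82% of all genes were. Atoh1, which sets the secretory fate, had 92.2 CPM in BT mutant, 132 CPM in BT WT and 92.8 CPM in PBS, and Spdef, a goblet maturation factor, had 171, 130 and 111 CPM.

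Most relatives of the members were scarce. Mptx2, the closest pentraxin, had 0, 1 and 2 UMIs over all kept cells of BT mutant, BT WT and PBS, all within the 3 UMIs taken as the floor. Reg3b, an antibacterial lectin, had 24, 0 and 2 UMIs, and Reg3g, its paralogue, 85, 10 and 34. Retnla, another resistin-like gene, had 5, 72 and 3 UMIs (2.76, 9.46 and 0.934 CPM) in Muc2-expressing cells. In macrophage or monocyte-like cells it had 5482, 2935 and 1542 CPM. Ang4, an antibacterial ribonuclease of goblet and Paneth cells, had 205, 83.3 and 93.7 CPM in Muc2-expressing cells. It was lower where Spink4 was high, with 15.1, 2.12 and 65.5 CPM in cells with at least 10 Spink4 UMIs and 643, 110 and 132 CPM in the rest. Of the type 2 cytokine response genes, 0 of 8 were higher and 5 lower in BT mutant than in BT WT, where 11.7% and 9.97% of all genes were, with Clca1 at 6413 and 14298 CPM, Fcgbp, a mucus protein, at 5287 and 9615 CPM and Sprr2a3 at 144 and 501 CPM. The tuft cell marker Dclk1 was farthest from 1, with 1 UMI in BT mutant and 73 in BT WT. Those are raw counts out of 1811251 and 7609073 UMIs, and the ratio rests on the 1 UMI. In BT WT 3 of the Muc2-expressing cells lay in the tuft-like cluster. Against PBS, 0 of 7 were higher and 2 lower in BT mutant, where 2.26% and 3.51% of all genes were. Between BT WT and PBS 3 of 8 were higher (Clca1, Retnla and Sprr2a3) and 0 lower in BT WT, where 5.66% and 5.82% of all genes were. Sprr2a3 is among the leading genes of a colonocyte-like cluster that held 73 of the Muc2-expressing cells of BT WT. Another 3 of them lay in a macrophage or monocyte-like cluster, the cell type with high Retnla. The part of such cells in these counts was not tested.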

How the data were processed

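Droplet single-cell RNA libraries (10x Genomics 3' chemistry) from mouse colon were analysed, 1 per group. The deposited matrices hold UMI counts per gene and barcode that the authors made with Cell Ranger 5.0.0, per the file headers; STAR and the build mm10 are named in the submitters' processing notes. Here barcodes with at least 300 genes and at most 25% mitochondrial UMIs were kept, with no doublet removal. CPM are summed UMIs per 1000000, with exact 95% Poisson intervals; shares have Clopper-Pearson intervals; ratios have conditional binomial intervals. UMI counts are summed over cells, so deep cells weigh more. List medians use a pseudocount of 10 CPM. Cells were thinned to 2000 UMIs for shares. Clusters (2000 variable genes without the 4 members, 30 principal components, 15 neighbours, leidenalg 0.10.2, resolution 1) were named from fixed markers, with at least 3 markers and a score of at least 1 (log2). The naming rules, the second division of 2 clusters and the limit of 50000 UMIs were set after the clusters were seen. The members and lists were chosen with earlier results of these data known. Named genes were the members, the 5 most and 2 least alike genes of each, and the 3 most abundant and 2 most different genes of each list; Lgr5, Kit, Atoh1, Spdef, Zg16, Clca1, Mki67 and the relatives were named after their values were seen. Ratios and thinning were tested on simulated data. Analyses used Python 3.11.15, scipy 1.17.1, scikit-learn 1.9.0 and scanpy 1.11.5. Each count was recomputed under other filters, cell definitions, depths and scalings. Kept cells had median depths of 3355 to 3845 UMIs, and all intervals cover counting error only.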

Additional observations from a re-analysis of the deposited data

How the results depend on the processing

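Each count of members at least 2-fold different in Muc2-expressing cells was recomputed under 15 settings, 3 of them chosen after seeing the data. For BT mutant over PBS the count was 2 or 3, but not always of the same genes: Spink4 was under 2-fold higher with at most 10% mitochondrial UMIs (1.98), with at least 1 Muc2 UMI (1.31) and over the goblet-like clusters, where Mptx1 or Reg4 was at least 2-fold lower. For BT mutant over BT WT it was 1 over the goblet-like clusters and 4 with equal weight per cell. For BT WT over PBS it was 0 with at most 10% mitochondrial UMIs, with at least 1 Muc2 UMI, without the highest Scrublet scores, and without cells with immune marker UMIs. It was 1 with no mitochondrial limit, with median-ratio scaling, and within the largest goblet-like cluster, where Reg4 gave no ratio. It was 4 with at least 10 Muc2 UMIs and 50 per 10000, over the goblet-like clusters, after thinning, with equal weight per cell, and at a fold of 1.5. The log2 ratio of Spink4 in BT mutant over PBS changed sign over the goblet-like clusters, to -0.10. Mptx1 in BT mutant over PBS, below 2-fold in the main setting, was 7.43-fold higher in the largest goblet-like cluster and 4.37-fold higher without cells with immune marker UMIs. In that cluster 1 BT mutant cell held 2980 of the 4479 Mptx1 UMIs, and without the top cell of each library the ratio was 2.91. The immune marker setting left out 76 of 157 Muc2-expressing cells in BT mutant and 139 of 192 in PBS. It kept 1859 of 16618 Mptx1 UMIs in BT mutant and 220 of 40337 in PBS. The causes were not tested. Median-ratio scaling moved all genes by 0.11 (log2) in BT WT over PBS and by -0.10 in BT mutant over BT WT. Genes at least 2-fold different, in any direction, numbered 1116 in BT WT over PBS, but 1744 with at least 20 UMIs and 299 with a pseudocount and no minimum; 462 in BT mutant over PBS, but 901 and 192; and 2026 in BT mutant over BT WT, but 838 with the pseudocount. No paired analysis was possible because each group had 1 library. Without replicates, no difference here can be set against the spread between animals.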
